A study of Mus musculus with 8 samples.

Results

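The genes described here were the 7 of the Lin28 and Igf2bp group of RNA-binding proteins, namely *Lin28a*, *Lin28b*, *Trim71*, *Dis3l2*, *Igf2bp1*, *Igf2bp2* and *Igf2bp3*. They were chosen by symbol, as the let-7 pathway and its oncofetal RNA-binding proteins, from the 25239 gene symbols counted in every library. All 7 were among the 14249 genes that passed the filter on low counts and were tested. Bulk RNA-seq had been made from whole female gonads at E14.5 on a C57BL/6 background, with 4 libraries from control embryos, which were *Bmpr1a* fl/fl, and 4 from *Bmpr1a*-cKO embryos, which had the same alleles with *Oct4*-Cre Cre/WT. Each library pooled the ovary pairs of 2 embryos, from 8 embryos of each genotype in 6 litters, and the litters behind a library are not given. The dams received 1 mg of 4-hydroxy tamoxifen and 0.5 mg of progesterone on the days 9.5, 10.5 and then 11.5 dpc, so the control embryos carried the floxed alleles and were exposed to the drug but had no Cre. BMPR1A is a type I receptor for bone morphogenetic proteins. The inducible Cre was driven by *Oct4*, which is active in germ cells, and the somatic cells of the ovary therefore kept the receptor. The comparison asked how expression in the fetal ovary differed when its germ cells had lost this receptor.

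LIN28A and LIN28B are paralogues that block the maturation of the let-7 microRNAs. They bind a GGAG motif in the loop of a let-7 precursor. LIN28A recruits uridylyl transferases to it, and the exonuclease DIS3L2 then degrades the uridylated precursor. Mature let-7 in turn represses messages that carry its seed match in the 3′ UTR, among them those of *Lin28* itself and of *Trim71*, which encodes a TRIM-NHL protein that represses messages of its own. The 3 IGF2BP proteins are KH-domain proteins that bind messages and protect many of them from decay. They are abundant in the embryo, and IGF2BP1 and IGF2BP3, but not IGF2BP2, are scarce in most adult tissues. In the germ line, LIN28A is best known for its part in the formation of primordial germ cells.

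The 9 mature let-7 names of the mouse (RefSeq) shared 1 seed, the bases 2 to 8, so let-7a is shown for all of them with the seed in capitals. A precursor with the motif that LIN28 binds and a precursor in which these letters did not follow the mature arm are shown beside it, with GGAG in capitals where it was found. Of 12 let-7 hairpins, 9 held the letters.
mmu-let-7a-5p: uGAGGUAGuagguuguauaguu
Mirlet7a-2 hairpin: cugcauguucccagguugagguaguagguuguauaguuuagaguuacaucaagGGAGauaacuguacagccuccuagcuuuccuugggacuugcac
Mirlet7b hairpin: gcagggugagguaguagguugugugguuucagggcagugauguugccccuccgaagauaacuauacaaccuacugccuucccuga

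The libraries held 8562961 to 15365052 counts, and TMM factors ran from 0.972 (*Bmpr1a*-cKO) to 1.033 (control). Expression is given as CPM, counts relative to the library total as scaled by TMM. *Bmpr1a* itself was at 218 ± 15.3 CPM in controls against 195 ± 10.5 CPM after deletion (SD, n = 4 each), with a Log2FC of -0.16 and an FDR of 0.0692 by edgeR, and the groups overlapped. For the deletion, the paper reports lost BMPR1A staining in germ cells and lower *Bmpr1a* in mutant ovaries by qRT-PCR. It also states that somatic cells of the gonad express *Bmpr1a* highly, and whole ovaries were counted here. *Ddx4*, which encodes an RNA helicase of germ cells, was present in every library, at 142 ± 21.9 CPM in controls against 153 ± 32.3 CPM in the cKO (Log2FC 0.12, FDR = 0.561). Summed over 11 germ cell markers, the level was 708 to 950 CPM in controls and 767 to 1216 CPM in the cKO, with 5 markers higher and 3 lower at an FDR below 0.05. Of 10 pregranulosa markers, 8 were lower, at a summed 1670 to 1976 CPM against 1440 to 1689 CPM. Of the macrophage markers 2 of 5 were higher (summed, 22.6 to 29.8 CPM against 29.2 to 37.8 CPM). Of the steroidogenic markers 2 of 5, of the Sertoli markers 1 of 5 and of the erythroid markers 1 of 3 were lower. None of the 7 stromal, 6 endothelial and 4 mesonephric markers passed the test. Over all genes tested, 17.3% were higher and 12.5% were lower by the same FDR. The single calls among Sertoli and erythroid markers were not read as a change of those cells. The adult globin genes *Hba-a1*, *Hba-a2*, *Hbb-bs* and *Hbb-bt* had no count in any library. The part of these shifts in the results below was not tested. In such bulk samples, fewer cells of a type and less RNA per cell cannot be told apart.

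Across the 7 genes, 4 were higher in *Bmpr1a*-cKO ovaries at an FDR below 0.05, namely *Igf2bp1*, *Trim71*, *Igf2bp3* and *Lin28a*, and none was lower. Over all genes tested, 17.3% were higher and 12.5% were lower by the same rule, 29.8% in either direction. *Igf2bp1* and *Trim71* were also DEGs (FDR below 0.05 with an absolute Log2FC above 0.5), as were 6.11% of all genes upregulated and 4.06% downregulated, 10.2% in either direction. In 3 of the 7 genes every *Bmpr1a*-cKO library lay above every control library, which was so for 16.1% of all genes. The median Log2FC of the 7 was 0.36 and that of all genes tested was -0.004. The Log2FC was above 0 for 6 of the 7, with *Igf2bp2* as the exception, joined by *Dis3l2* when libraries were scaled to germ cell markers.

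*Igf2bp1*, a mainly fetal member of its family, gave the largest of these differences relative to its error. It had 101, 114, 106 and 101 CPM in control libraries 1 to 4 and 173, 190.3, 200.05 and 185 CPM in *Bmpr1a*-cKO libraries 1 to 4. The lowest *Bmpr1a*-cKO library stood 1.52-fold above the highest control library. The means were 106 ± 6.00 CPM and 187 ± 11.2 CPM (SD, n = 4 each), and the gene was upregulated with a Log2FC of 0.83 ± 0.063 (SE; 95% interval 0.69 to 0.96; FDR = 3.18e-07). Of all genes tested, 3.17% had a larger Log2FC. *Igf2bp1* lies at chr11:95957163-96005940 on the minus strand of mm10.

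*Igf2bp3*, whose protein is likewise oncofetal, was higher by less. Control libraries 1 to 4 had 83.5, 92.3, 84.4 and 87.0 CPM, and *Bmpr1a*-cKO libraries 1 to 4 had 103, 116, 114 and 112 CPM. The groups did not overlap, with a gap of 1.12-fold between the nearest libraries. The Log2FC was 0.36 ± 0.060 (SE; 95% interval 0.23 to 0.49; FDR = 0.000370), below the fold threshold of a DEG. The gene lies at chr6:49085223-49214957 on the minus strand and shares 1529 exon bases (18.7% of its exon length) with *Malsu1* on the opposite strand. The libraries were strand-specific, but whether the counting used strand is not given in the sources used here. *Malsu1* was at 17.7 ± 0.848 CPM in controls against 16.5 ± 1.28 CPM in the cKO (Log2FC -0.10, FDR = 0.451). Shorter stretches of exon are shared with a gene on the opposite strand by *Lin28a* (234 bases), *Trim71* (135 bases) and *Igf2bp1* (43 bases).

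*Igf2bp2*, the member that persists in adult tissues, did not pass the test. Its control libraries 1 to 4 had 150.1, 156, 155 and 156 CPM, and *Bmpr1a*-cKO libraries 1 to 4 had 156, 148, 136 and 139 CPM. The groups overlapped through *Bmpr1a*-cKO library 1, and the other three *Bmpr1a*-cKO libraries lay below every control library. The Log2FC was -0.10 ± 0.058 (SE; 95% interval -0.22 to 0.03; FDR = 0.235). *Igf2bp2* lies at chr16:22059009-22163299 on the minus strand.

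*Trim71* had the largest Log2FC of the group, but spread more between libraries than the *Igf2bp* genes. Its control libraries 1 to 4 had 51.2, 54.7, 72.3 and 42.8 CPM, and *Bmpr1a*-cKO libraries 1 to 4 had 81.8, 105, 105 and 106 CPM. Library 1 of the *Bmpr1a*-cKO group was low beside the other three, and it still lay 1.13-fold above the highest control library. The means were 55.3 ± 12.4 CPM and 99.4 ± 11.7 CPM (SD, n = 4 each), and the Log2FC was 0.86 ± 0.126 (SE; 95% interval 0.59 to 1.13; FDR = 0.000128). The gene lies at chr9:114507133-114564369 on the minus strand.

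*Lin28a* varied most between ovaries of 1 genotype, with a coefficient of variation of 24.8% in control libraries. These had 62.3, 76.3, 98.3 and 57.7 CPM in libraries 1 to 4, against 77.6, 104, 113 and 109.7 CPM in *Bmpr1a*-cKO libraries 1 to 4. The groups overlapped, since control library 3 lay above *Bmpr1a*-cKO library 1. The Log2FC was 0.47 ± 0.143 (SE; 95% interval 0.17 to 0.77; FDR = 0.0220). This call changed with single libraries, as the FDR was 0.0734 without control library 1, 0.0882 without control library 4, 0.0584, 0.0736 and 0.0642 without *Bmpr1a*-cKO library 2, 3 or 4, and 0.105 with DESeq2. It went the other way without control library 3 (Log2FC 0.63, FDR = 0.00143) and without *Bmpr1a*-cKO library 1 (0.57, FDR = 0.00271), where the gene was a DEG. *Lin28a* lies at chr4:134003330-134018841 on the minus strand.

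*Lin28b* was the scarcest of the group, with 127 to 295 counts in a library. It had 18.0, 13.0, 15.1 and 13.6 CPM in control libraries 1 to 4 and 15.1, 21.9, 17.4 and 19.99 CPM in *Bmpr1a*-cKO libraries 1 to 4. Control library 1 lay within the *Bmpr1a*-cKO range. The Log2FC was 0.34 ± 0.126 (SE; 95% interval 0.07 to 0.60), and the FDR of 0.0545 missed the threshold. Without control library 1 the FDR was 0.0199 and the Log2FC 0.44, and without *Bmpr1a*-cKO library 1 they were 0.0125 and 0.42. With each of the other libraries left out in turn, the FDR was 0.0700 to 0.209 and the Log2FC 0.25 to 0.37, lowest without *Bmpr1a*-cKO library 2. The gene lies at chr10:45376620-45486395 on the minus strand.

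*Dis3l2*, the exonuclease of the pathway, was at 29.5, 30.6, 29.7 and 32.4 CPM in control libraries 1 to 4. In *Bmpr1a*-cKO libraries 1 to 4 it was at 33.9, 36.2, 36.1 and 31.5 CPM. The groups overlapped through control library 4 and *Bmpr1a*-cKO library 4, and the Log2FC of 0.17 ± 0.073 (SE; 95% interval 0.01 to 0.32) had an FDR of 0.0993. *Dis3l2* lies at chr1:86703808-87050095 on the plus strand.

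**Figure D1:**
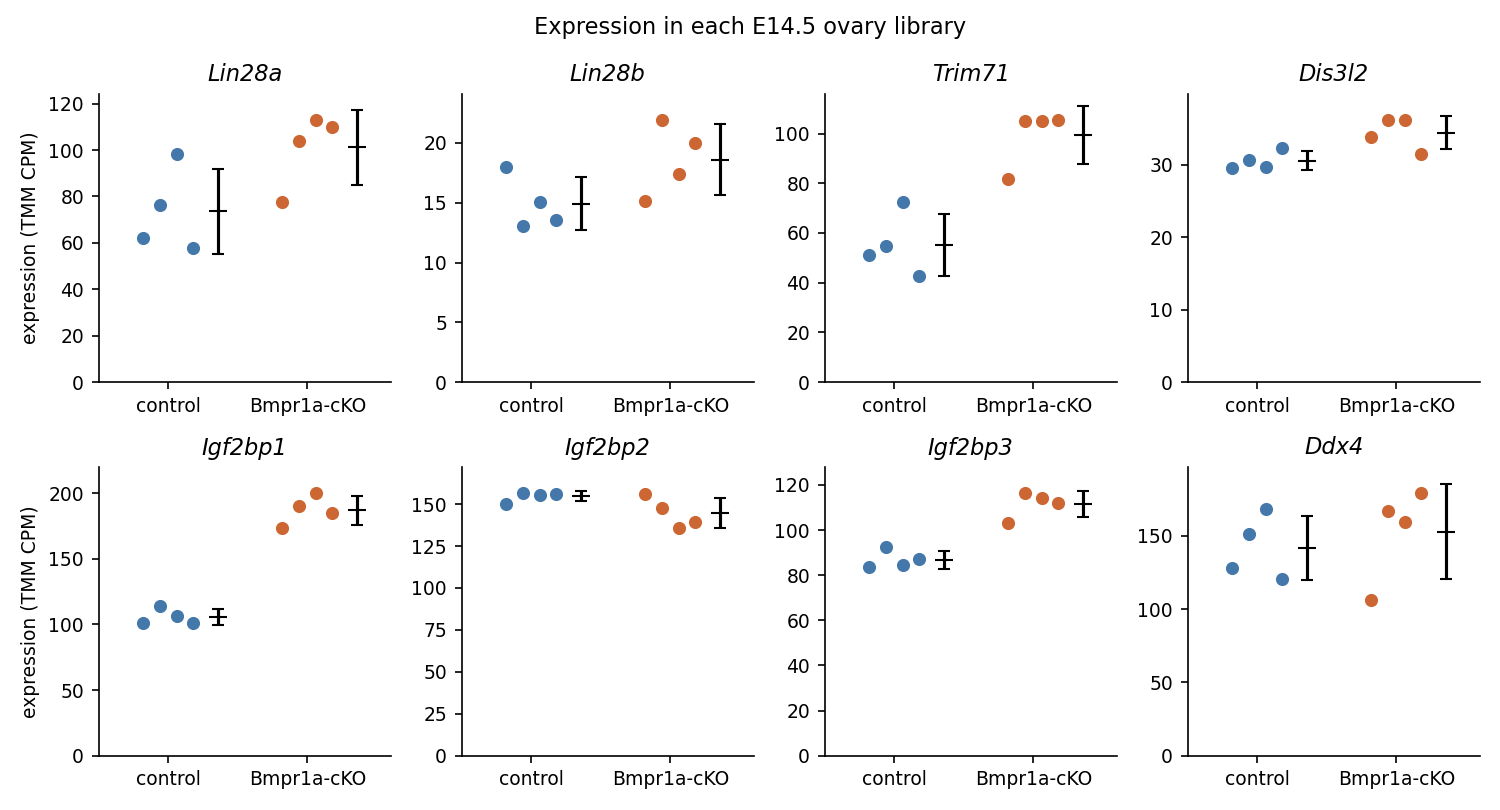
Expression (TMM CPM, axes from 0) of the 7 genes and of *Ddx4* in each E14.5 ovary library, with control in blue and *Bmpr1a*-cKO in orange, libraries 1 to 4 from left to right, and the mean with its SD in black. The groups are apart for *Trim71*, *Igf2bp1* and *Igf2bp3* and overlap for the other panels.

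Scaling each library to its germ cell markers in place of TMM lowered every one of these Log2FC values, as the median of all genes tested moved from -0.004 to -0.22 under it. The markers it used had themselves changed in both directions, and the DEGs went from 871 upregulated and 578 downregulated to 431 and 1370. *Igf2bp1* (Log2FC 0.61, FDR = 0.00565) and *Trim71* (0.65, FDR = 0.00294) were still upregulated. *Lin28a* (0.25, FDR = 0.302) and *Igf2bp3* (0.14, FDR = 0.573) no longer passed the test. *Lin28b* was at 0.09, *Igf2bp2* at -0.29 and *Dis3l2* turned to -0.05, none of them past the threshold.

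**Figure D2:**
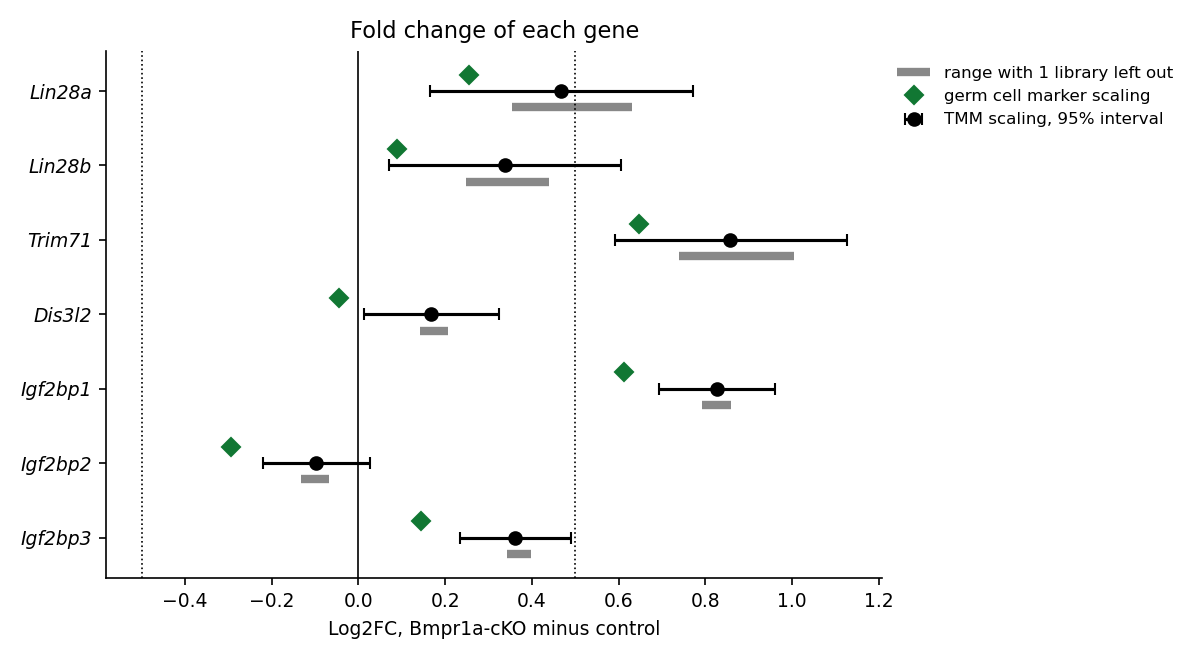
Log2FC of each gene (*Bmpr1a*-cKO minus control, horizontal axis) with its 95% interval under TMM scaling as a black point and bar, the range over the 8 fits with 1 library left out as a grey bar, and the value under germ cell marker scaling as a green diamond. Dotted lines mark the DEG threshold of 0.5 in either direction, which the grey bars of *Trim71* (0.74 to 1.00) and *Igf2bp1* (0.79 to 0.86) clear.

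The order of the levels was compared per length, as CPM per kb of exon. In control ovaries *Igf2bp2* stood at 20.9 ± 0.404 and *Lin28a* at 18.4 ± 4.57 CPM per kb, and these neighbours did not differ beyond their spread. *Igf2bp1* at 10.9 ± 0.620 and *Igf2bp3* at 10.6 ± 0.485 CPM per kb also overlapped. *Trim71* (5.92 ± 1.33), *Dis3l2* (3.43 ± 0.147) and *Lin28b* (1.65 ± 0.247) followed without overlap. In *Bmpr1a*-cKO ovaries *Lin28a* had the highest mean, 25.3 ± 4.03 CPM per kb, and its libraries overlapped those of *Igf2bp2* (19.5 ± 1.21) and *Igf2bp1* (19.3 ± 1.16), which also overlapped each other. *Igf2bp3* (13.7 ± 0.720), *Trim71* (10.7 ± 1.26), *Dis3l2* (3.87 ± 0.253) and *Lin28b* (2.05 ± 0.328) came after them.

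**Figure D3:**
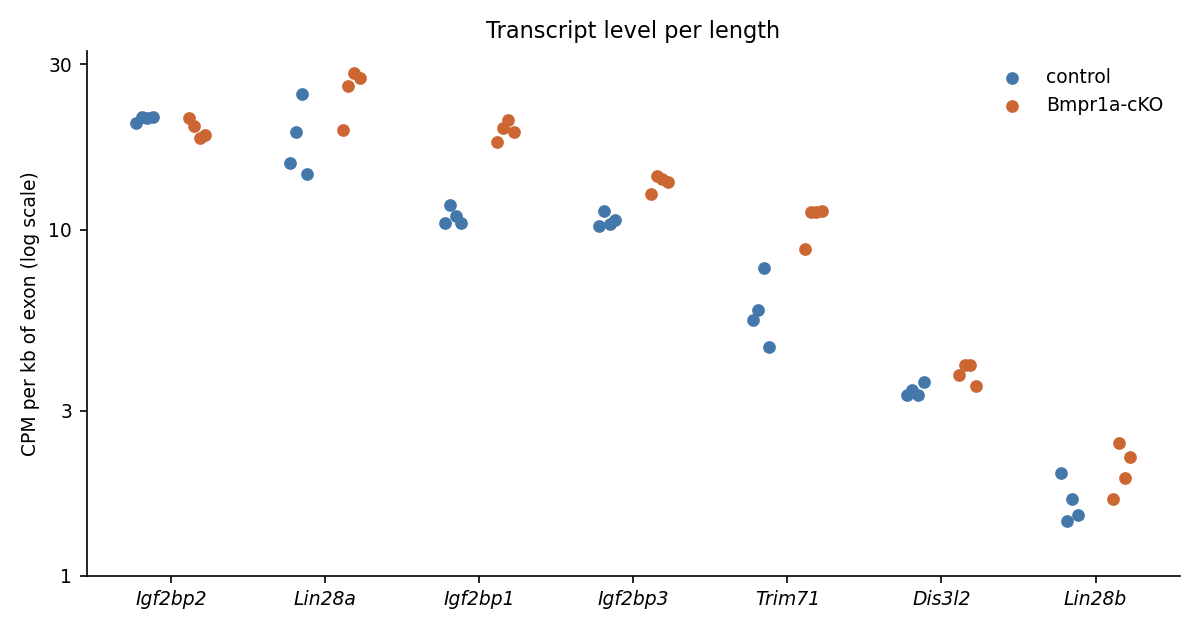
Level per length (CPM per kb of exon, log scale) of the 7 genes in the 4 control (blue) and 4 *Bmpr1a*-cKO (orange) libraries, ordered by the control mean. *Igf2bp1* sits near *Igf2bp3* in control libraries and near *Igf2bp2* in *Bmpr1a*-cKO libraries, and *Lin28b* is lowest in both.

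Ratios within a library do not depend on how libraries are scaled, so the balance between related genes was compared in this way. The log2 ratio of *Igf2bp1* to *Igf2bp2* CPM was -0.57, -0.46, -0.55 and -0.63 in control libraries 1 to 4 and 0.15, 0.36, 0.56 and 0.41 in *Bmpr1a*-cKO libraries 1 to 4. *Igf2bp2* thus had more counts than *Igf2bp1* in each control library and fewer in each *Bmpr1a*-cKO library. The shift was 0.92 (exact permutation test of 4 against 4 libraries, two-sided, p = 0.0286, the smallest this design allows, and adjusted p = 0.0381 over the 4 ratios compared). For *Igf2bp1* to *Igf2bp3* the shift was 0.46 and for *Igf2bp2* to *Igf2bp3* it was -0.46, each without overlap and with the same p-values. The 3 ratios share their genes and are not independent of each other. With any 1 control library left out, the adjusted p of these 3 ratios by the exact test was 0.0571 to 0.0762. The *Igf2bp1* to *Igf2bp2* shift was 0.99 when *Bmpr1a*-cKO library 1 was left out and 0.86 when library 3 was. The ratio of *Lin28b* to *Lin28a* ran from -2.69 to -1.78 in control and from -2.69 to -2.24 in *Bmpr1a*-cKO libraries, and its difference of -0.16 did not pass the exact permutation test (p = 0.543). That difference was 0.004 without control library 1.

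A ratio to *Ddx4* sets each gene against 1 message of the germ cells, and 7 such ratios were compared. *Ddx4* was chosen with earlier results known. Other germ cell markers differed between genotypes in both directions, such as *Dazl* (Log2FC 0.634) and *Mael* (-0.795). Ratios to them were not taken, so the shifts below hold relative to *Ddx4* only. For *Lin28a* it was -1.03, -0.99, -0.77 and -1.06 (log2) in control and -0.45, -0.68, -0.49 and -0.71 in *Bmpr1a*-cKO libraries 1 to 4. The libraries that overlapped in CPM were thus apart relative to *Ddx4*, with a shift of 0.38. *Trim71* shifted by 0.77 and *Igf2bp1* by 0.73 relative to *Ddx4*, also without overlap. Each of these 3 had p = 0.0286 by the exact permutation test and an adjusted p of 0.0667, which missed the threshold. *Igf2bp3*, which was apart in CPM, overlapped relative to *Ddx4*, at -0.61, -0.71, -0.99 and -0.47 in control and -0.04, -0.52, -0.48 and -0.68 in *Bmpr1a*-cKO libraries (shift 0.27, exact permutation test, adjusted p = 0.400). *Lin28b* (0.22), *Dis3l2* (0.08) and *Igf2bp2* (-0.19) overlapped as well. The level of *Ddx4* was lowest in *Bmpr1a*-cKO library 1, at 106 CPM, and the ratios of that library were the highest of its group for all 7 genes. Without it the shifts were 0.34 for *Lin28a*, 0.70 for *Trim71*, 0.60 for *Igf2bp1*, 0.14 for *Igf2bp3*, 0.15 for *Lin28b* and -0.39 for *Igf2bp2*, and that of *Dis3l2* turned to -0.08. The shift of *Dis3l2* was also below 0, at -0.02, without control library 3. For *Lin28b* the shift was 0.36 with control library 1 left out and 0.13 with control library 2 left out. Leaving out control library 3 gave -0.27 for *Igf2bp2* and 0.17 for *Igf2bp3*, and leaving out *Bmpr1a*-cKO library 4 gave -0.085 and 0.35. Leaving out control library 3 gave 0.15 for *Lin28b*, and leaving out control library 4 gave -0.11 for *Igf2bp2*.

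**Figure D4:**
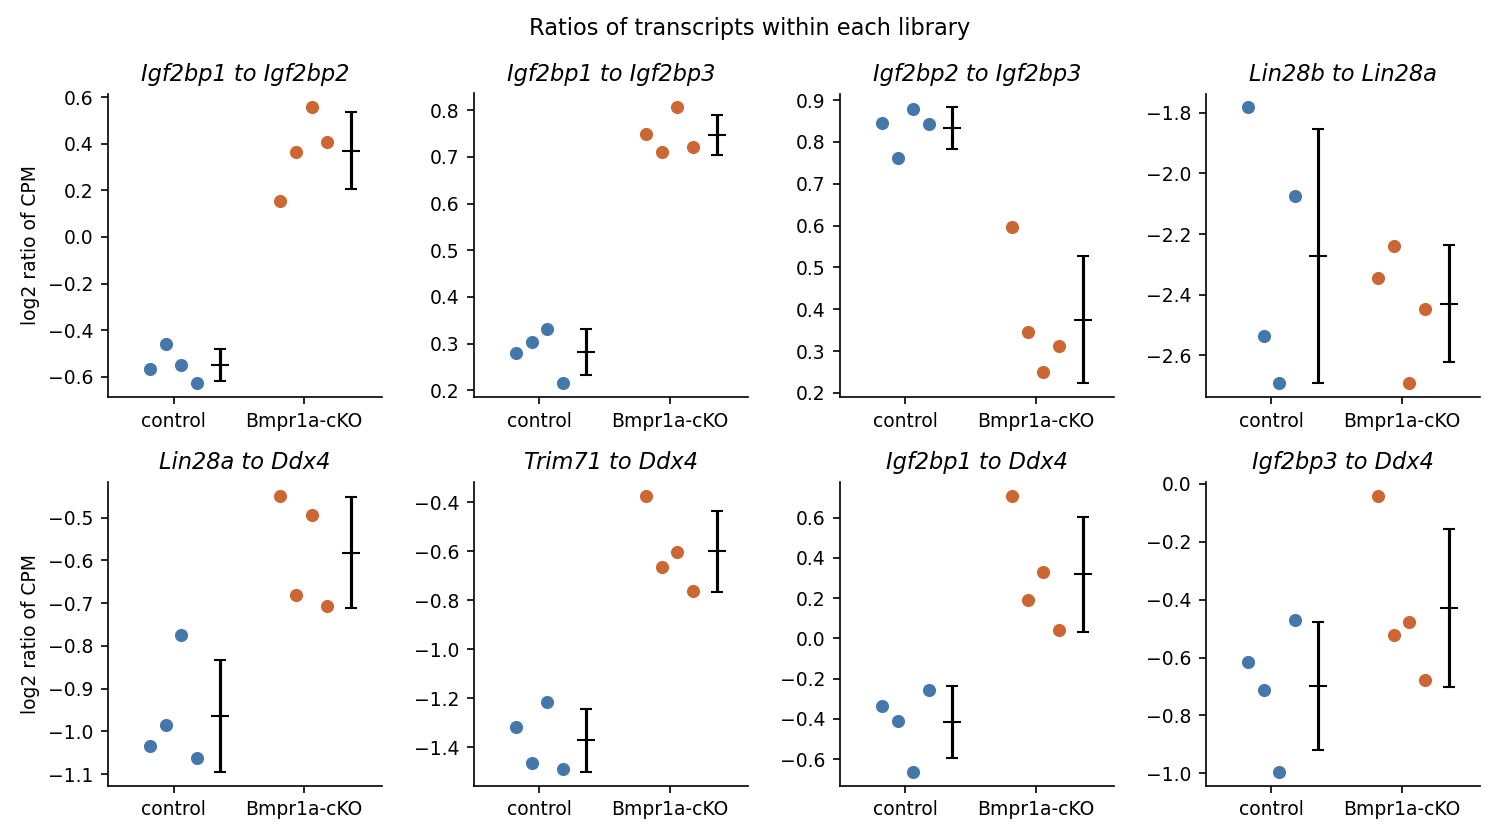
Log2 ratios of CPM within each library (vertical axes, which do not start at 0) between related genes in the upper row and to the germ cell gene *Ddx4* in the lower row, with control in blue, *Bmpr1a*-cKO in orange, libraries 1 to 4 from left to right and the mean with its SD in black. The groups are apart for the 3 *Igf2bp* ratios and for *Lin28a*, *Trim71* and *Igf2bp1* to *Ddx4*, and overlap for *Lin28b* to *Lin28a* and *Igf2bp3* to *Ddx4*.

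The members also differed in whether they followed each other from library to library. *Lin28a* and *Trim71* had a Pearson r of 0.93 over the 8 libraries (log2 CPM), and 0.97 once the mean of each genotype was subtracted. Against *Ddx4* the r after this subtraction was 0.90 for *Lin28a* and 0.86 for *Trim71*, and it was -0.19 for *Dis3l2* and -0.57 for *Igf2bp2*. *Igf2bp1* and *Igf2bp3* had an r of 0.98, and 0.83 after subtraction. These values describe 8 libraries that share depth and makeup, and they are given without a test. By r over the 8 libraries, the genes most like *Lin28a* were *Ctps* (0.99), a CTP synthase, and *Tcp1* (0.99), a chaperonin subunit, with *Ado* (0.97). *Trim71* was most like *Jade1* (1.00), *Esrrb* (1.00), an orphan nuclear receptor of pluripotent cells, and *Pik3cb* (1.00). The nearest to *Igf2bp1* were *Kif21a* (1.00), a kinesin, *E2f8* (1.00), an atypical E2F repressor, and *Hspa14* (0.99). *Igf2bp3* was nearest to *Arrdc3*, *Etf1* and *Prkaa1* (0.99 to 1.00), *Igf2bp2* to *Bag3*, *Pde8b* and *Sesn3* (0.96 to 0.98), *Lin28b* to *Acp6*, *Btbd19* and *Pdcd7* (0.95 to 0.98) and *Dis3l2* to *Kdm3b* and *Gas2* (0.96 to 0.99). They were picked among all genes tested as the highest r, so high values were given by the choice.

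The let-7 seed match was then looked for in the longest annotated 3′ UTR of each gene (GENCODE vM21 on mm10, sense strand only), as the letters CTACCTC, which pair with bases 2 to 8 of let-7. It occurred in 1896 of 21024 such UTRs (9.02%), at least 4 times in 12 of them (0.057%). Of the 7 genes, 6 held 16 matches in all, and 12 of the 16 were followed by an A. *Lin28b*, *Trim71* and *Igf2bp1* held 4 each, *Lin28a* held 2, *Igf2bp2* and *Igf2bp3* held 1 each and *Dis3l2* held none in its 350 bases. Among UTRs within 20% of the same length, as many matches as in *Trim71* were found in 0.38%, as in *Igf2bp1* in 0.18%, as in *Lin28b* in 0.16%, and as in *Lin28a* in 2.06%. For *Igf2bp2* and *Igf2bp3* this share was 12.0% and 13.3%. A match is a description of the letters and not a measured site. The matches of *Igf2bp1* and *Trim71*, the DEGs of the group, and those of *Lin28a* and *Igf2bp3* are shown in windows of 30 bases on the minus strand, with the match in capitals.
Igf2bp1 match 1, chr11:95961776-95961805: gcagtgctgtgcgaagtaaaCTACCTCaag
Igf2bp1 match 2, chr11:95959355-95959384: ggaaccagcagtgctattaaCTACCTCagc
Igf2bp1 match 3, chr11:95958761-95958790: tacgagtataaatggatgaaCTACCTCagt
Igf2bp1 match 4, chr11:95958138-95958167: gtttcacttttggttttaatCTACCTCtta
Trim71 match 1, chr9:114512470-114512499: agtacaacattgcctaagtcCTACCTCagc
Trim71 match 2, chr9:114512374-114512403: tgtgaagtgataatttctatCTACCTCaac
Trim71 match 3, chr9:114509045-114509074: ttttgtttagtatggattttCTACCTCaat
Trim71 match 4, chr9:114509019-114509048: caattttggcaaaaagttgtCTACCTCacg
Lin28a match 1, chr4:134005187-134005216: ggagtgcacagcctgttgaaCTACCTCatt
Lin28a match 2, chr4:134004549-134004578: gctttgagatcgccacaaacCTACCTCact
Igf2bp3 match 1, chr6:49086785-49086814: aaacgtgcatttttactcaaCTACCTCagg

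In *Trim71* the matches fell in pairs, at 166 and 262 and at 3591 and 3617 bases after the stop codon. Those of *Igf2bp1* lay at 1715, 4136, 4730 and 5353 bases. Across all tested genes with a searched UTR, the 1426 with at least 1 match had a median Log2FC of -0.01 and 17.6% were higher at an FDR below 0.05, beside -0.001 and 17.7% for the 12005 without one. With at least 2 matches the share was 22.1% of 181 genes, whose UTRs were also longer (median 3645 bases against 1095 bases). These 181 genes include *Lin28a*, *Lin28b*, *Trim71* and *Igf2bp1* themselves. The 12 genes with at least 4 matches included *Igf2bp1*, *Trim71* and *Lin28b*. Among the other nine, *Trim6* was upregulated (Log2FC 0.99, FDR = 2.95e-05), *Mcf2l* had a Log2FC of -0.36 (FDR = 0.00715), and *Hmga2*, the classical let-7 target, had one of -0.07 (FDR = 0.661). *Nr6a1*, with 8 matches, was at 0.18 (FDR = 0.240).

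The genes around the pathway were grouped in 8 lists, whose counts of higher and lower genes at an FDR below 0.05 are read against 17.3% higher and 12.5% lower over all genes tested and a median Log2FC of -0.004. Nothing particular to a list was drawn from these counts. The first list held genes that process, load or regulate microRNAs, among them those that uridylate the let-7 precursor. Of its 23 tested genes, 7 were higher and 1 was lower, where 29.8% of all genes were called in either direction (median Log2FC 0.12, and -0.10 under germ cell marker scaling). *Dgcr8* (0.31) and *Drosha* (0.23), which cut the primary transcript, *Ago2* (0.31), the slicing Argonaute, and *Xpo5* (0.22), the exporter of precursors, were among the higher. *Ago4*, another Argonaute, was the sole DEG and was downregulated, from 16.5 ± 0.959 CPM to 10.1 ± 1.74 CPM (SD, n = 4 each; Log2FC -0.69, FDR = 0.000438). The uridylyl transferases that act with LIN28, *Tut4* (Log2FC 0.00, FDR = 0.998) and *Tut7* (-0.15, FDR = 0.185), did not pass the test. *Dicer1* was at 0.08 (FDR = 0.312).

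Mature let-7 was not measured by these libraries. The let-7 hairpins had 0 to 18 counts per library, 3 of 12 had none in any library, and none passed the filter on low counts. Of the 4 host genes tested, *Wdr82* was higher (Log2FC 0.20, FDR = 0.0171), while *Huwe1* (0.18), *Mir99ahg* (0.05) and *Mir100hg* (-0.001) were not called. The median of the 4 was 0.11, and -0.11 under germ cell marker scaling.

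Of 21 well-known let-7 targets, 3 were higher and 1 was lower, beside 17.3% and 12.5% of all genes (median Log2FC 0.08, and -0.13 under germ cell marker scaling). *Arid3b* (0.49), a DNA-binding protein, and *Prdm1* (0.45), a transcription factor required to found the germ line, were among the higher. *Ccnd1*, a D-type cyclin, was downregulated from 81.8 ± 10.1 CPM to 46.5 ± 1.81 CPM (SD, n = 4 each; Log2FC -0.81, FDR = 4.29e-06), and its searched UTR held no match. *Myc*, *Mycn*, *Hmga1* and *Hmga2* were among the 17 that did not pass.

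Around *Dis3l2*, 5 of 13 genes of RNA decay were higher and 1 was lower, against 17.3% and 12.5% over all genes (median Log2FC 0.16, and -0.06 under germ cell marker scaling). The higher ones were the exosome subunits *Exosc4* (0.42), *Exosc7* (0.37), *Exosc3* (0.49) and *Exosc2* (0.24) and the nuclease *Dis3* (0.23). *Dis3l*, the cytoplasmic exosome nuclease, had a Log2FC of -0.23 (FDR = 0.0259). No gene of this list was a DEG.

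Of 10 messages known to be bound by IGF2BP proteins, 2 were higher, a share near the 17.3% of all genes, none was lower and 8 did not pass the test (median Log2FC -0.06, and -0.27 under germ cell marker scaling). *Mapk4*, which encodes an atypical MAP kinase, was upregulated from 1.73 ± 0.524 CPM to 11.6 ± 1.45 CPM (SD, n = 4 each; Log2FC 2.77 ± 0.187 SE; FDR = 9.92e-08). *H19* (-0.14, FDR = 0.176), *Igf2* (-0.11, FDR = 0.237), *Actb* (0.11, FDR = 0.167) and *Cd44* (-0.06, FDR = 0.701) did not pass the test. Of 9 genes for proteins found with IGF2BPs, 3 were higher, namely *Ybx1* (0.27), *Hnrnpu* (0.26) and *Pabpc1* (0.20), and *Stau1* was lower (-0.19), beside the same 17.3% and 12.5%, with a list median of 0.18 and of -0.04 under germ cell marker scaling.

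Among 9 genes listed as relatives, a partner or reported targets of TRIM71, 3 were higher and each was a DEG. Of all genes, 17.3% were higher and 6.11% were upregulated DEGs. The list had a median Log2FC of 0.21, and of -0.01 under germ cell marker scaling. *Shcbp1*, the partner and not a reported target, went from 14.2 ± 1.12 CPM to 26.1 ± 2.94 CPM (Log2FC 0.89, FDR = 9.86e-06). Of the reported targets, *Egr1*, an immediate early factor, went from 8.50 ± 0.968 CPM to 13.6 ± 0.773 CPM (0.69, FDR = 0.000300). *E2f7*, a repressor of the cell cycle, went from 16.5 ± 1.42 CPM to 23.6 ± 1.41 CPM (0.52, FDR = 0.000399; SD, n = 4 each). *Cdkn1a* (0.21, FDR = 0.105), *Rbl1* (0.21, FDR = 0.0897) and *Rbl2* (-0.096, FDR = 0.468) did not pass. Of 6 other genes with a cold shock domain, which LIN28 proteins also carry, *Ybx1* (0.27) and *Ybx3* (0.20) were higher and *Ybx2*, the germ cell member, was downregulated from 32.0 ± 3.80 CPM to 17.5 ± 1.49 CPM (Log2FC -0.86, FDR = 1.18e-05). The median of these 6 was 0.02, and -0.19 under germ cell marker scaling.

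Under germ cell marker scaling 1 gene was called in each of 6 of these 8 lists, and 0 among the let-7 host genes and the RNA decay genes. These calls were *Ago4*, *Ccnd1*, *Mapk4*, *Shcbp1* and *Ybx2* in their lists, with the direction given above, and *Fmr1* among the IGF2BP partners (Log2FC -0.48, FDR = 0.0420), which had not passed under TMM.

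**Figure D5:**
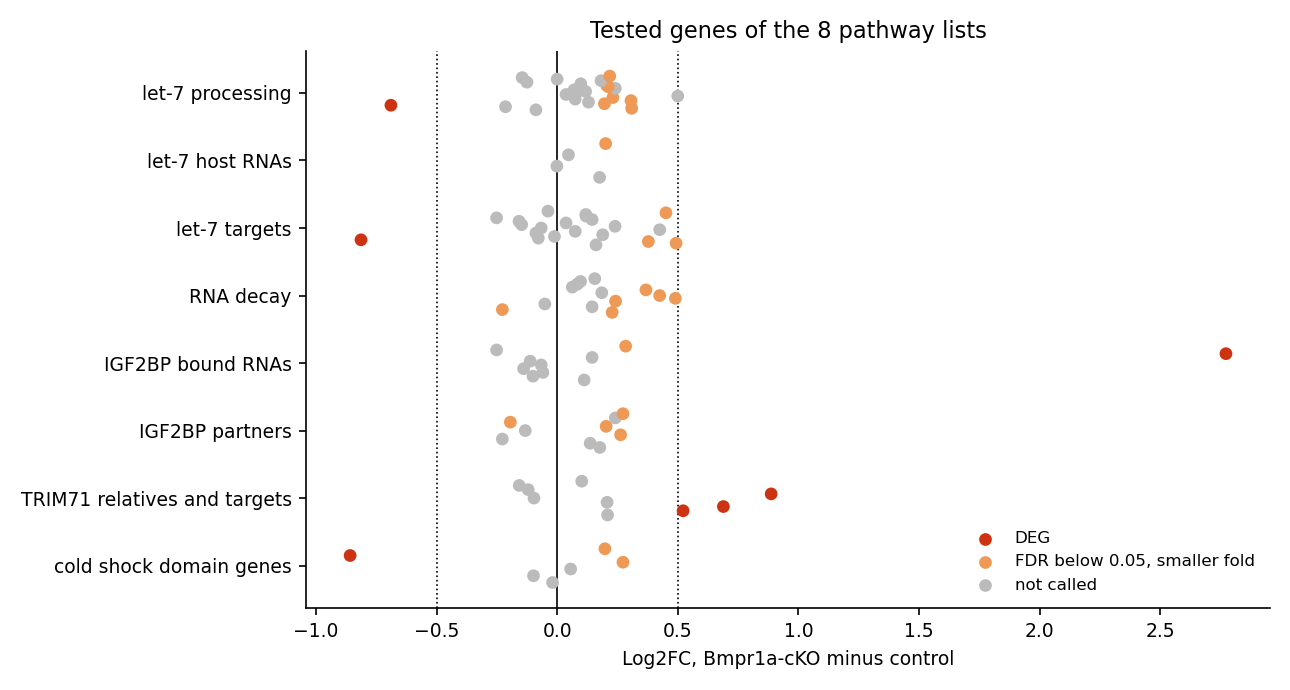
Log2FC (*Bmpr1a*-cKO minus control, horizontal axis) of every tested gene in the 8 lists, with DEGs in red, genes at an FDR below 0.05 with a smaller fold in orange and genes not called in grey, spread vertically for legibility. Most points lie within the dotted DEG threshold of 0.5 in either direction, *Mapk4* lies farthest to the right at 2.77 and *Ybx2* farthest to the left at -0.86.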

How the data were processed

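Total RNA was sequenced from 4 control and 4 *Bmpr1a*-cKO pools of E14.5 ovaries. Per the submitters' processing notes and the paper, the authors trimmed reads with Trimmomatic 0.39, aligned them with STAR 2.5.2 to mm10 and deposited whole-number counts per gene symbol and library, without normalization. The annotation and the strand setting of the counting are not given in the sources used here. A deposited table of normalised values was not used.

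Counts were analysed in R 4.3.3 with edgeR 4.0.16 (filterByExpr by genotype, TMM, quasi-likelihood F test, two-sided, Benjamini-Hochberg adjustment over 14249 genes). FDR and Log2FC in the text come from this fit. A DEG had an FDR below 0.05 and an absolute Log2FC above 0.5. Ratios were taken from log2 CPM with a prior count of 2 and compared by exact permutation over 70 arrangements. limma-voom, the likelihood ratio test, DESeq2, other scalings and filters, the replicate block and each library left out were alternatives. The procedure was tested on simulated counts. Depth was 8562961 to 15365052 counts per library, and the counts behind a gene limit its precision, most of all for *Lin28b*. Exon lengths, positions and UTRs came from GENCODE vM21 (mm10), microRNA sequences from RefSeq.

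The members, the lists and *Ddx4* as a reference were chosen with earlier results of these data known. Named besides the 7 genes, *Bmpr1a* and *Ddx4* were, for each list, the 4 genes with the lowest FDR and any DEG, and for each member the 3 genes with the highest Pearson r. Some genes that this rule names are not reported here by name, and the list counts include them. *Malsu1* was named for its overlap. *Fmr1*, the genes with many let-7 matches, the uncalled list members and the other called list members (*Xpo5*, *Exosc2*, *Dis3l*) were named after their values were seen.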

Additional observations from a re-analysis of the deposited data

Results flagged for a closer look

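Of 14 groups of 4 libraries (the 7 genes in each genotype), 1 held a library far from the others. *Bmpr1a*-cKO library 1 had 81.8 CPM of *Trim71*, where the other three had 105 to 106 CPM, and its gap to them was 0.977 of the range of the group. Chance flags about 1 in 20 such groups. The same library had the lowest *Ddx4* level of its group, at 106 CPM, and the lowest total count of all libraries. Without it the Log2FC of *Trim71* was 0.94.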

How the results depend on the processing

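*Igf2bp1* and *Trim71* remained DEGs under all 17 alternatives, with Log2FC of 0.61 to 0.86 and of 0.65 to 1.00. With 1 library left out, Log2FC ran from 0.354 to 0.630 for *Lin28a*, 0.247 to 0.440 for *Lin28b*, 0.739 to 1.005 for *Trim71*, 0.141 to 0.206 for *Dis3l2*, 0.793 to 0.860 for *Igf2bp1*, -0.133 to -0.068 for *Igf2bp2* and 0.342 to 0.397 for *Igf2bp3*. *Lin28a* missed the threshold with DESeq2 (0.449) and germ cell marker scaling (0.254), and *Igf2bp3* with the latter (0.144), under which *Dis3l2* reversed (-0.046) and 2 of the 7 genes had an FDR below 0.05, in place of 4 (3 to 5 with 1 library left out). *Lin28b* passed with the likelihood ratio test (0.333), limma-voom (0.352) and no filter on low counts (0.328). Without the fold threshold there were 4242 calls in place of 1449 (1288 to 1627 with 1 library left out). With 1 library left out, log2 ratio shifts ran from 0.859 to 0.994 for *Igf2bp1* to *Igf2bp2*, 0.441 to 0.480 for *Igf2bp1* to *Igf2bp3*, -0.531 to -0.415 for *Igf2bp2* to *Igf2bp3*, -0.299 to 0.004 for *Lin28b* to *Lin28a* and -0.081 to 0.206 for *Dis3l2* to *Ddx4* (-0.021 without control library 3). The causes were not tested. Libraries of the same number had correlated deviations for 3 of the 4 numbers (0.198, 0.161, 0.108 and -0.087), 5 of 8 libraries correlated best with their own number, and the labels give no shared litter, so the number was not taken as a pairing. With the replicate block there were 1457 DEGs, 2 of the 7 genes were DEGs as before, and the *Igf2bp* ratios, at the same 0.921, 0.464 and -0.457, had p = 0.125 in a paired exact permutation test, the smallest it allows. Under germ cell marker scaling 6 lists had 1 call each and the other two had 0. With 127 to 295 counts per library, *Lin28b* had the fewest counts of the 7, though the SE of its Log2FC was not the largest.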
